A study of Mus musculus with 5 samples.

Results

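Transcripts of 9 genes of the epidermal lipid barrier were examined in RNA of sorted dermal group 2 innate lymphoid cells (dILC2s), lymphocytes of the skin that make type 2 cytokines. The genes were chosen by name (Alox12b, Aloxe3, Abca12, Cers3, Ugcg, Smpd1, Pnpla1, Cyp4f39 and Sdr9c7) from a table of 47729 genes, and each matched 1 entry. The study compared freshly sorted, unstimulated cells of wild-type (WT) and Rag1-/- female mice on the B6 background. By its methods the mice were 8 to 13 weeks old, 10 mice were pooled per WT library and 9 mice per Rag1-/- library, whereas the labels give 16 Rag1-/- mice in all. Rag1-/- mice carry the deletion in every cell and lack mature T and B cells. Both genotypes were thus pools of animals, and the pools were independent of each other. The 5 libraries were 3 WT pools (5, 6 and 13) and 2 Rag1-/- pools (2 and 7), each pool being 1 sample. One label field names the cells of the Rag1-/- libraries as type 3 innate lymphoid cells, while the sample protocols describe dermal ILC2s for both genotypes.

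The libraries held 8050562 to 39477243 counts on genes, and Rag1-/- pool 2 was the shallowest. For Rag1 itself, 4, 0 and 5 counts were found in the WT pools 5, 6 and 13, against 5 and 48 in Rag1-/- pools 2 and 7, so that the targeted transcript was not lower in the libraries labelled Rag1-/-. With so few counts in WT, a lower level could not have been seen, so these counts do not test the genotype. The genotypes are those of the labels throughout. Transcripts of ILC2 markers such as Gata3, Thy1 and Il7r were present in every library, with 1253 to 2354 counts per 1000000 counts of the library (CPM) summed over 12 markers in WT and 3867 to 5885 CPM in the libraries labelled Rag1-/-. Keratinocyte transcripts were present as well. The sum of 9 basal keratinocyte markers was 15924 to 18626 CPM in WT and 5186 to 8261 CPM in the libraries labelled Rag1-/-, and that of 9 suprabasal markers was 9418 to 19192 CPM and 925 to 7171 CPM. The flow cytometry gate of the study for dILC2s took viable CD45+ CD90hi cells without CD2 or CD3 signal, which keratinocytes, being CD45-, would not pass. A separate gate for the RNA samples is not given in the sources used here. Over 9 T cell markers the sums were 51.5 to 105 CPM in WT and 232 to 281 CPM in the libraries labelled Rag1-/-. These markers did not move together. Trbc1 (154 and 126 CPM in Rag1-/- pools 2 and 7), Cd3g (68.4 and 64.1 CPM), Trac and Cd4 were above every WT library. Cd5 was below, and Cd3d, Cd3e, Trdc and Cd8a overlapped between the groups. Over 5 melanocyte markers the sums were 27.8 to 46.9 CPM in WT and 20.1 to 38.01 CPM in the libraries labelled Rag1-/-. In bulk RNA, fewer cells of a type and less RNA per cell cannot be told apart.

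The outer layer of the epidermis holds back water with stacked sheets of ceramides, cholesterol and free fatty acids. Keratinocytes make ceramides with very long acyl chains, attach linoleate to their ends, store them as glucosylceramides in lamellar bodies, and release and reconvert them at the surface of the granular layer. Lipoxygenases then oxidize the linoleate so that the ceramide can be bound to the cornified envelope. Loss of most of these genes, or of their human counterparts, causes congenital ichthyosis.

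In the libraries labelled Rag1-/-, 7 of the 9 genes had lower transcript levels than in every WT library: both epidermal lipoxygenases, Sdr9c7, Cers3, Cyp4f39, Pnpla1 and Abca12. Of all 19011 genes tested, 24.0% had both libraries labelled Rag1-/- below every WT library. The log2 fold changes (log2FC, libraries labelled Rag1-/- over WT) of these 7 genes ran from -2.29 to -1.53. The broadly expressed genes Ugcg and Smpd1 overlapped between the groups. All 9 genes passed the filter on low counts, and the median log2FC over them was -2.01, against 0.02 over all genes tested. With edgeR's quasi-likelihood test none of the 9 genes was called, that is, none combined a Benjamini-Hochberg adjusted p under 0.05 with a log2FC beyond 1 in size. Of all genes, 5.73% were called in either direction, 2.16% lower and 3.57% higher. An unadjusted p-value under 0.05 with a negative fold change was obtained for 5 of the 9 genes (Aloxe3, Abca12, Cers3, Pnpla1 and Sdr9c7) and for 12.3% of all genes. DESeq2 called 4 of the 9 genes lower (Aloxe3, Abca12, Cers3 and Pnpla1), against 7.59% of the genes to which it gave an adjusted p-value.

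**Figure D1:**
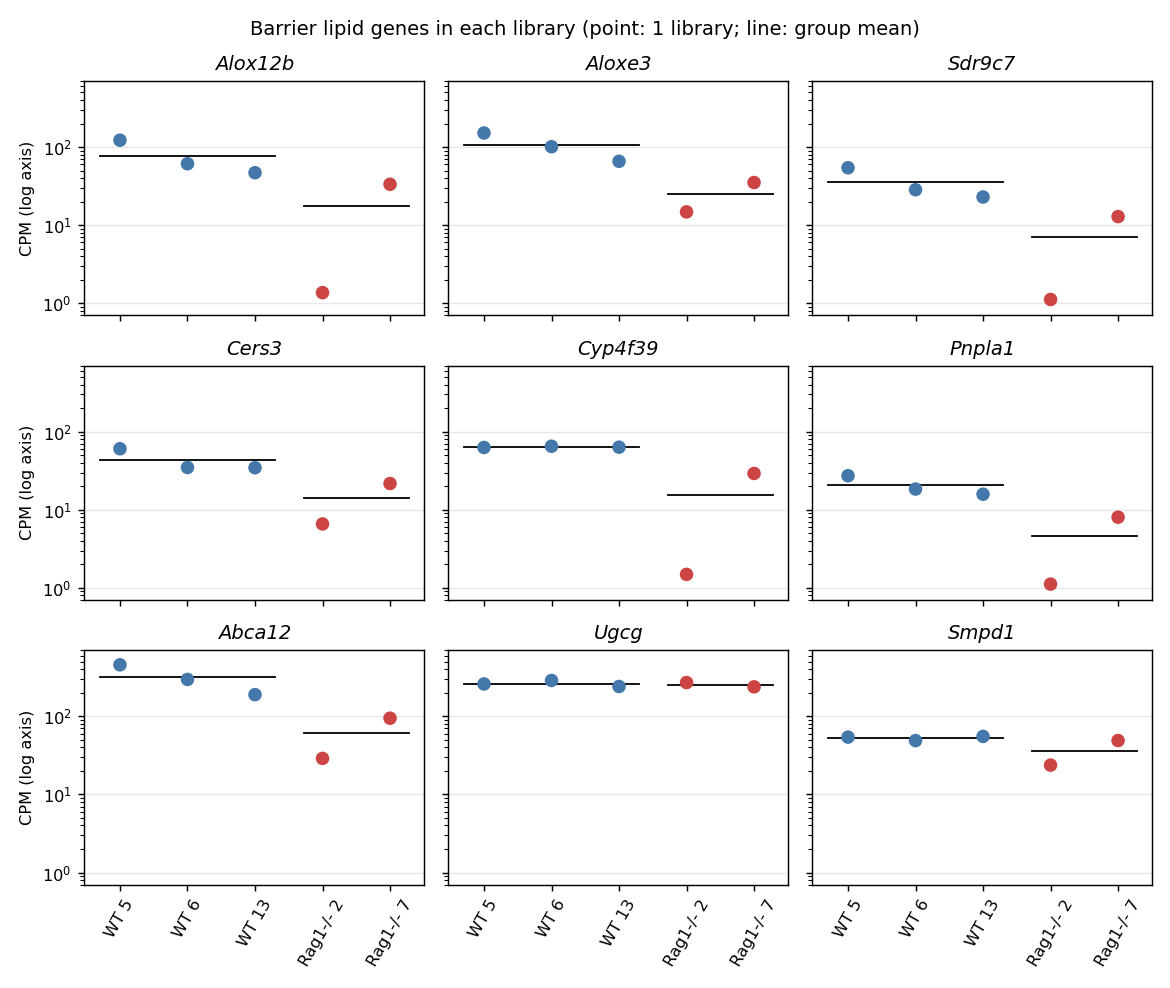
CPM of each of the 9 genes (vertical log axis) in the 5 libraries (horizontal axis), WT in blue and libraries labelled Rag1-/- in red, with 1 point per library and a line at the mean of the group. Ugcg lay between 238 and 288 CPM in all libraries, while Alox12b, Sdr9c7, Cyp4f39 and Pnpla1 had only 1.12 to 1.49 CPM in Rag1-/- pool 2.

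Alox12b encodes the 12R-lipoxygenase that starts the oxidation of linoleate in acylceramides (ENSMUSG00000032807, chromosome 11 of GRCm38, 69156989 to 69169792, plus strand). It had 122, 61.2 and 46.9 CPM in WT pools 5, 6 and 13, and 1.37 and 33.4 CPM in Rag1-/- pools 2 and 7. The 2 pools labelled Rag1-/- lay below all WT pools but 24.4-fold apart from each other. The log2FC was -2.03 (standard error, SE, 1.02, adjusted p = 0.258, edgeR). Pool 2 held 11 counts of Alox12b, which gives 0.682 to 2.44 CPM (95% exact Poisson interval, counting error only), and would have held 269 counts at the level of pool 7.

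Aloxe3 encodes the enzyme that takes up the product of Alox12b and turns it into an epoxy alcohol (ENSMUSG00000020892, chromosome 11, 69125896 to 69149115, plus strand). The Aloxe3 and Alox12b genes are neighbours, 7.873 kb apart with no other listed gene between them. Aloxe3 had 151, 101 and 65.7 CPM in WT pools 5, 6 and 13, and 14.8 and 35.1 CPM in Rag1-/- pools 2 and 7. All WT pools were above both pools labelled Rag1-/-, which were 2.38-fold apart. Its log2FC was -2.02 with the smallest SE of the 7 lower genes (0.49, adjusted p = 0.0570, edgeR), and DESeq2 called it (adjusted p = 0.000331).

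The 2 neighbouring lipoxygenase genes differed in their ratio between the pools labelled Rag1-/-. Of the counts on the pair, Alox12b took 44.7% (43.8 to 45.7, exact Clopper-Pearson 95% interval), 37.7% (36.6 to 38.9) and 41.7% (40.1 to 43.3) in WT pools 5, 6 and 13. It took 48.7% (46.8 to 50.6) in Rag1-/- pool 7 and 8.46% (4.30 to 14.6) in Rag1-/- pool 2. The share in pool 7 was thus somewhat above the WT range, and that in pool 2 far below it. These intervals cover counting error only.

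Sdr9c7 encodes a dehydrogenase that acts on the epoxy alcohol ceramides made by the lipoxygenases (ENSMUSG00000040127, chromosome 10, 127898518 to 127911761, plus strand). It had 54.3, 28.4 and 22.9 CPM in WT pools 5, 6 and 13, and 1.12 and 12.9 CPM in Rag1-/- pools 2 and 7. The pools labelled Rag1-/- were both below WT and 11.5-fold apart. Its log2FC of -2.18 was not called (SE 0.83, adjusted p = 0.154, edgeR).

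Cers3 encodes the ceramide synthase for ultra-long acyl chains (ENSMUSG00000030510, chromosome 7, 66743504 to 66823691, plus strand). It had 60.4, 34.8 and 34.5 CPM in WT pools 5, 6 and 13, and 6.58 and 21.7 CPM in Rag1-/- pools 2 and 7. The groups did not overlap, and WT pool 5 stood above the other WT pools. Its log2FC was the nearest to 0 of the 7 lower genes (-1.53, SE 0.52, adjusted p = 0.121, edgeR), and it was called by DESeq2 (adjusted p = 0.0160).

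Cyp4f39, the mouse counterpart of human CYP4F22, encodes the hydroxylase that places the end group to which linoleate is later attached (ENSMUSG00000061126, chromosome 17, 32468462 to 32492479, plus strand). Its WT pools were almost level at 62.8, 65.1 and 63.4 CPM (pools 5, 6 and 13), and Rag1-/- pools 2 and 7 had 1.49 and 29.2 CPM. Unlike the other 6 lower genes, it did not stand highest in WT pool 5. The log2FC was -1.94 (SE 0.89, adjusted p = 0.222, edgeR), and the pools labelled Rag1-/- were 19.6-fold apart. GENCODE M21 starts the gene further upstream, at 32452723, than the deposited table does. Which model its counts cover was not tested.

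Pnpla1 encodes the transacylase that joins linoleate to the hydroxylated ceramide (ENSMUSG00000043286, chromosome 17, 28858411 to 28890308, plus strand). It had 27.3, 18.4 and 15.8 CPM in WT pools 5, 6 and 13, and 1.12 and 8.04 CPM in Rag1-/- pools 2 and 7. The groups did not overlap, and pool 2 held 9 counts. Its log2FC was -2.01 (SE 0.69, adjusted p = 0.124, edgeR), with an adjusted p of 0.00951 from DESeq2. The antisense gene Pnpla1os overlaps its first part, with 0 to 7 counts per library, and the strand setting of the counting is not given in the sources used here.

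Abca12 encodes the transporter that loads glucosylceramides into lamellar bodies (ENSMUSG00000050296, chromosome 1, 71242276 to 71414910, minus strand). It had 456, 297 and 189 CPM in WT pools 5, 6 and 13, and 28.9 and 94.6 CPM in Rag1-/- pools 2 and 7. The lowest WT pool was 2.00-fold above Rag1-/- pool 7. Abca12 had the lowest log2FC of the 9 genes (-2.29, SE 0.59, adjusted p = 0.0661, edgeR), and DESeq2 called it (adjusted p = 0.000304).

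Ugcg encodes the enzyme that adds glucose to ceramide in most cell types (ENSMUSG00000028381, chromosome 4, 59189257 to 59222833, plus strand). It had 259, 288 and 241 CPM in WT pools 5, 6 and 13, and 270 and 238 CPM in Rag1-/- pools 2 and 7. The libraries of the groups were intermixed, and the log2FC was -0.02 (SE 0.20, adjusted p = 0.971, edgeR). Smpd1 encodes the lysosomal acid sphingomyelinase, which in the epidermis turns sphingomyelin into ceramide (ENSMUSG00000037049, chromosome 7, 105554360 to 105558388, plus strand). It had 54.1, 48.9 and 55.3 CPM in WT pools 5, 6 and 13, and 23.7 and 48.9 CPM in Rag1-/- pools 2 and 7. Rag1-/- pool 7 lay within the WT range and pool 2 below it, with a log2FC of -0.48 (SE 0.32, adjusted p = 0.387, edgeR).

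**Figure D2:**
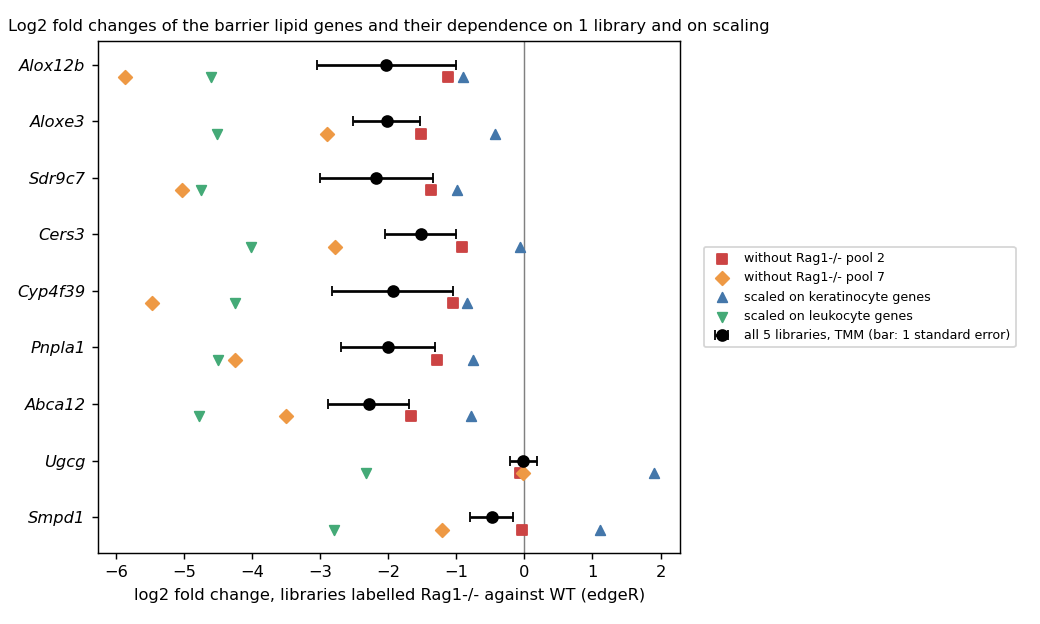
Log2 fold changes of libraries labelled Rag1-/- against WT (horizontal axis) for the 9 genes (vertical axis), with all libraries (black, bar of 1 standard error (SE)), without either pool labelled Rag1-/- (red and orange), and after scaling on keratinocyte (blue) or leukocyte genes (green). Without pool 2 the 7 lower genes lay between -1.66 and -0.92, and without pool 7 between -5.87 and -2.78.

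The calls depended on single libraries and on the filter. No gene of the 9 was called with RLE scaling (2.26% of all genes lower) or with library size alone (2.56%), 7 were called lower without a filter (4.98%), and 2 where at least 10 counts were required in every library (Aloxe3 and Abca12, 4.54%). With Rag1-/- pool 7 left out, 8 of the 9 genes were called lower, all but Ugcg, against 7.98% of all genes, and with Rag1-/- pool 2 left out no gene of the whole table was called by edgeR, while 5200 had an unadjusted p-value under 0.05. The lone library left in a group is assumed to vary like the others. Without pool 2 the median log2FC of the 9 genes was -1.13, and all 7 lower genes kept negative values. At the level of pool 7, the 8050562 counts of pool 2 would have held 65 counts of Pnpla1 and 104 of Sdr9c7, against 9 observed for each. After random thinning of all libraries to this depth, Aloxe3 was called lower (log2 fold change -2.13, adjusted p = 0.0361, edgeR), 1 of the 9 genes against 3.34% of all.

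Sequences upstream of the genes are shown where RefSeq (GRCm38.p6) and the count table give the same start site, as the stretch from which 3 lower genes and 1 of the broadly expressed genes start. RefSeq windows were found for 8 of the 9 genes, and 4 had the same start site in both. Each run gives the 250 bases before the start site, 5′ to 3′ on the strand of the gene, with matches to the searched motifs in capitals.
Abca12, chr1:71414911-71415160, minus strand: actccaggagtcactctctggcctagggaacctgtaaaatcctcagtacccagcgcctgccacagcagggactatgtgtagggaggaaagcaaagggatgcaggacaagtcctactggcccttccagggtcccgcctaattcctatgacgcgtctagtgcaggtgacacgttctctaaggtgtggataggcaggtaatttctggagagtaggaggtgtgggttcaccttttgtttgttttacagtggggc
Cers3, chr7:66743254-66743503, plus strand: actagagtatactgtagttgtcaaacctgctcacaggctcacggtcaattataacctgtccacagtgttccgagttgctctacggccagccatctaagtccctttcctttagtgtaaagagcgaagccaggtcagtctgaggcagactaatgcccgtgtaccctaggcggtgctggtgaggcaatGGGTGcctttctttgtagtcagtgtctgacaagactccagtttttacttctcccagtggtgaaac
Pnpla1, chr17:28858161-28858410, plus strand: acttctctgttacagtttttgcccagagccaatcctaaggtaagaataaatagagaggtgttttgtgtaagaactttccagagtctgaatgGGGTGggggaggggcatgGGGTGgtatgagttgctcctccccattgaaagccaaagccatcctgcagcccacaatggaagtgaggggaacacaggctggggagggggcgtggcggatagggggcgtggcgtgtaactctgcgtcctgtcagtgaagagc
Smpd1, chr7:105554110-105554359, plus strand: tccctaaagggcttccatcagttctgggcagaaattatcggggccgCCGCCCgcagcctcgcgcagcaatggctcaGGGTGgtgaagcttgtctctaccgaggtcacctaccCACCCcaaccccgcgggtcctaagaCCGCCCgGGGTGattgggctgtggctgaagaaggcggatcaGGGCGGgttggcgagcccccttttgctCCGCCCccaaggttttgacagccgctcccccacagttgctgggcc

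The motifs were searched on both strands in the 8 windows: TGANTCA (AP-1), CACCC (read by Krüppel-like factors), AACNNGTT (Grainyhead-like factors), TATAAA (a core promoter element) and GGGCGG (GC box). CACCC was present in 6 of the 8 windows, where 52% of 32817 RefSeq windows of this length held it. It was absent from those of Abca12 and Cyp4f39. GGGCGG was found in 3 windows, those of Alox12b, Ugcg and Smpd1 (32.7% of all windows), and TATAAA in that of Sdr9c7 alone (12.4%). TGANTCA and AACNNGTT, present in 6.75% and 3.64% of all windows, were found in none of the 8. A match is a description of letters. In the 4 windows shown, matches to different motifs did not overlap. No motif searched was present in all of the lower genes.

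Between genes, levels were compared in CPM per kilobase of the transcript length given in the table. The order of the genes depends on this single length (1599 bases for Cyp4f39). Whether it matches the transcripts present was not tested. In WT, Ugcg was highest with 65.5 ± 5.88 CPM per kb (SD, n = 3). Cyp4f39 (39.9 ± 0.760), Aloxe3 (35.1 ± 14.2), Abca12 (34.4 ± 14.7) and Alox12b (31.6 ± 16.5) followed and did not differ beyond their spread. Smpd1 had 21.9 ± 1.41 CPM per kb, within the spread of Alox12b. Cers3 (13.3 ± 4.58) and Sdr9c7 (12.3 ± 5.85) were close to each other, and Pnpla1 was lowest with 4.57 ± 1.34 CPM per kb (SD, n = 3). In the libraries labelled Rag1-/-, Ugcg was at 63.4 ± 5.62 CPM per kb (SD, n = 2), while Pnpla1 had 1.02 ± 1.09 CPM per kb (SD, n = 2), an SD as large as its mean.

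Keratinocyte transcripts moved with the lower genes. All 9 basal markers, among them Krt5 and Krt14, were lower in both libraries labelled Rag1-/- than in every WT library. So were 7 of 9 suprabasal and 9 of 12 granular layer markers, and 24.0% of all genes tested. By edgeR 6 basal and 1 suprabasal marker were called lower, as were 2.16% of all genes. In Rag1-/- pool 2 the summed basal markers were 1.59-fold below pool 7, the suprabasal ones 7.75-fold and the granular ones 23.8-fold (44.5 against 1060 CPM, with the granular marker Flg at 0 counts in pool 2). The corresponding differences of Alox12b (24.4-fold) and Cyp4f39 (19.6-fold) were near that of the granular sum. Those of Aloxe3 (2.38-fold), Abca12 (3.27-fold), Cers3 (3.29-fold) and Pnpla1 (7.19-fold) lay between those of the basal and the suprabasal sums. Sdr9c7 (11.5-fold) lay between the suprabasal and the granular sums. Single markers spread widely around these sums. Suprabasal markers ran from 2.91-fold (Dsg1a) to 12.4-fold (Dsc1). Granular markers with counts in pool 2 ran from 3.11-fold (Tgm3) to 476-fold (Flg2). The differences therefore do not place a gene in 1 layer. Over 28 leukocyte markers the sum was 1187 to 2919 CPM in WT and 8615 to 9450 CPM in the libraries labelled Rag1-/-. Of these markers 21 were called higher by edgeR, against 3.57% of all genes. Fibroblast markers overlapped between the groups, with sums of 7321 to 13143 CPM and 7767 to 7774 CPM. The part of these cell types in the lower levels was not tested.

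The 9 genes were also set against 1000 counts on the 18 basal and suprabasal keratinocyte markers of the same library. By this measure 4 of them were lower in both libraries labelled Rag1-/- (Aloxe3, Abca12, Pnpla1 and Sdr9c7), as were 2.04% of all genes. The summed markers were themselves lower in these libraries, so this share is largely set by the denominator. Its basal and suprabasal parts also differed unequally between Rag1-/- pools 7 and 2 (1.59-fold and 7.75-fold). Abca12 had 12.1, 10.3 and 7.48 counts per 1000 in WT pools 5, 6 and 13, and 4.74 and 6.13 in Rag1-/- pools 2 and 7. Aloxe3 had 3.999, 3.52 and 2.59 in WT, and 2.42 and 2.28 in Rag1-/- pools 2 and 7, just below the lowest WT pool. Alox12b, Cers3 and Cyp4f39 overlapped between the groups. For Alox12b this came from Rag1-/- pool 7, with 2.16 counts per 1000 inside the WT range of 1.85 to 3.24, while pool 2 had 0.224. Cers3 was nearly level at 1.22 to 1.60 counts per 1000 in WT, and 1.08 and 1.41 in Rag1-/- pools 2 and 7. Ugcg and Smpd1 were higher in both libraries labelled Rag1-/- by this measure, as were 69.8% of all genes, with 6.86 to 10.04 counts of Ugcg per 1000 in WT and 44.2 and 15.4 in Rag1-/- pools 2 and 7. Set against 1000 counts on the 12 granular layer markers instead, Aloxe3, Abca12, Pnpla1 and Sdr9c7 were not lower in both libraries. Rag1-/- pool 2 then lay above every WT pool for all 4 genes, and pool 7 below. The granular sum was itself small in pool 2, at 44.5 CPM. For Pnpla1 and Sdr9c7 the pool 2 value (25.1) rested on 9 counts each, so counting error leaves their place against WT uncertain. For Aloxe3 and Abca12 it rested on 119 and 233 counts. Aloxe3 had 47.6, 74.7 and 46.0 granular-scaled counts in WT pools 5, 6 and 13, and 332 and 33.2 in Rag1-/- pools 2 and 7. Alox12b, which overlapped by the first measure, was lower in both libraries by the granular one. It had 38.5, 45.3 and 32.8 granular-scaled counts in WT pools 5, 6 and 13. Rag1-/- pools 2 and 7 had 30.7 and 31.5, with 11 counts of Alox12b in pool 2. Which genes were lower thus depended on the markers chosen.

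**Figure D3:**
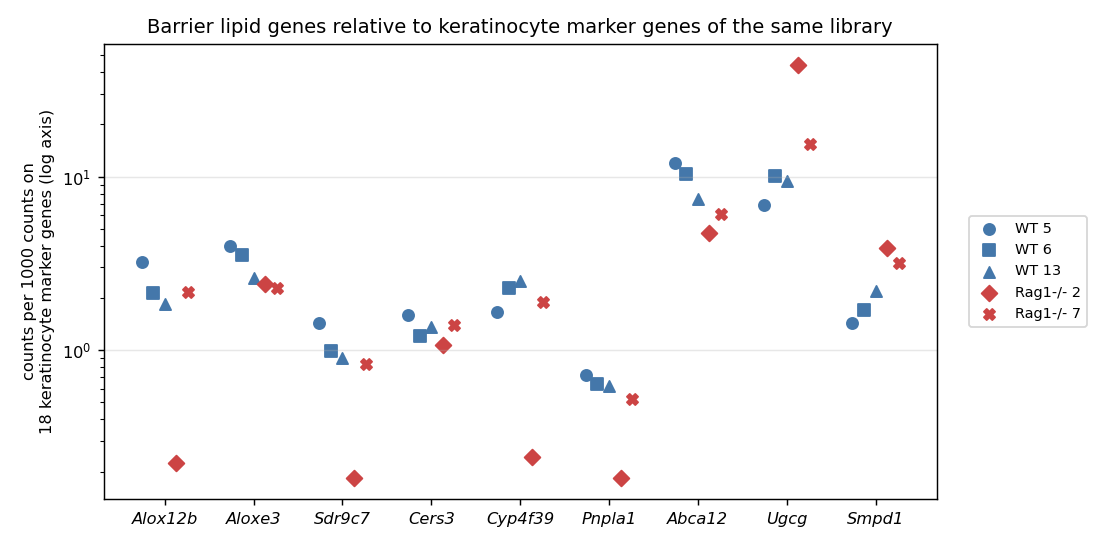
Counts of each of the 9 genes per 1000 counts on 18 keratinocyte marker genes of the same library (vertical log axis), with 1 symbol per library. Rag1-/- pool 2 lies far below the others for Alox12b (0.224), Sdr9c7 (0.183), Cyp4f39 (0.244) and Pnpla1 (0.183), just below the WT pools for Aloxe3 and Cers3, and above them for Ugcg.

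In edgeR with the libraries scaled on these 18 markers, which moved the median of all genes to 1.86, the 7 lower genes had log2FC between -0.99 (Sdr9c7, adjusted p = 0.169) and -0.07 (Cers3, adjusted p = 0.929), and none was called, where 0.274% of all genes were called lower. Ugcg was then called higher (1.90, adjusted p = 0.00942), as were 62.3% of all genes, and Smpd1 changed sign without being called (1.12, adjusted p = 0.0890). With scaling on the leukocyte markers, which moved the median of all genes to -2.28, all 9 genes were called lower, as were 72.7% of all genes. Under either scaling the 7 genes lay below the median gene and Ugcg close to it, as without marker scaling. A marker scaling moves all genes together, so these places were largely fixed in advance and are not a separate result.

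The genes whose profile over the 5 libraries was most like the mean of the 7 lower genes were Skint10, Pvrl4, Scnn1a, Ano9 and Sbsn, out of 15021 genes with a mean of at least 1 CPM. Likeness was measured as the root mean square difference of centred log2 CPM, which was 0.10 for Skint10, 0.11 for Pvrl4 and Scnn1a, 0.14 for Ano9 and 0.15 for Sbsn. Sbsn encodes suprabasin, a protein of the suprabasal epidermis, Scnn1a a subunit of the epithelial sodium channel, and Pvrl4 the adhesion molecule nectin-4. Sbsn had 1160, 749 and 647 CPM in WT pools 5, 6 and 13, and 55.9 and 431 CPM in Rag1-/- pools 2 and 7. Among the 7 genes themselves, Pnpla1 was nearest to the mean profile (0.05), and Alox12b (0.66) and Cyp4f39 (0.61) were farthest from it, while Ugcg differed by 1.63. The order WT pool 5, 6, 13, then Rag1-/- pool 7 and pool 2, from high to low, was seen in 6 of the 9 genes and in 6.35% of all genes. This order requires that the groups do not overlap, and among the 4558 genes with both libraries labelled Rag1-/- below every WT library it was seen in 26.5%.

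Other genes of the ceramide pathway were followed from lists by role, with 54 genes in all and every one tested. Of these, 3 were called lower (Elovl6, Sgms1 and Acer3) and 1 higher (Cers2) by edgeR, against 2.16% and 3.57% of all genes, and the median over the 54 was -0.73. DESeq2 called 14 lower (7.59% of all genes) and 1 higher (Hacd3, 7.22% of all genes). Without any one WT pool, or without Rag1-/- pool 2, edgeR called none of them, as it called no gene of the table, while 3521 to 5200 genes had an unadjusted p-value under 0.05.

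Of 12 genes of ceramide backbone synthesis none was called by edgeR, and their median log2FC was -0.02, with 7 of the 12 negative. Sptlc2, a subunit of the serine palmitoyltransferase of most cells, had 103 to 111 CPM in WT and 95.5 and 107 CPM in Rag1-/- pools 2 and 7. Sptlc3, the subunit enriched in epidermis, had 66.5 to 82.8 CPM in WT and 5.84 and 30.6 CPM in Rag1-/- pools 2 and 7, with a log2FC of -1.95 that was not called (SE 0.61, adjusted p = 0.101, edgeR). Cers2, the ceramide synthase of most tissues, rose with a log2FC of 1.01 (SE 0.22, adjusted p = 0.0433, edgeR), from 59.1, 80.8 and 85.7 CPM in WT pools 5, 6 and 13 to 157 and 141 CPM in Rag1-/- pools 2 and 7. This value lies at the limit of 1, and Cers2 was not called with RLE scaling (log2FC 0.99, adjusted p = 0.0451, edgeR, 3.32% of all genes higher), with library size alone (0.98, adjusted p = 0.0458, 3.33%) or by DESeq2 (0.97, adjusted p = 0.00316), where the fold fell short of the limit. With leukocyte scaling its sign was negative (-1.19, adjusted p = 0.128, edgeR), and 0.0736% of all genes were called higher. After thinning, 2 pathway genes were called higher (5.01% of all genes), and without Rag1-/- pool 7, 1 (4.07%).

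Among 10 genes of acyl chain elongation and acylceramide synthesis, 9 had negative log2FC with a median of -1.12 over the list. Elovl6, which elongates palmitate, fell by 2.23 on the log2 scale (SE 0.42, adjusted p = 0.0340, edgeR), from 562, 933 and 626 CPM in WT pools 5, 6 and 13 to 96.3 and 197 CPM in Rag1-/- pools 2 and 7. Elovl4, which makes the ultra-long chains used by Cers3, had 363, 1084 and 1709 CPM in WT pools 5, 6 and 13, and 19.5 and 318 CPM in Rag1-/- pools 2 and 7 (log2 fold change -2.57, SE 1.14, adjusted p = 0.204, edgeR). Its WT pools stood in the reverse order of Alox12b, Aloxe3 and Abca12, with pool 5 lowest, as did the sum of 10 sebaceous gland markers (3601, 5306 and 7205 CPM in WT pools 5, 6 and 13). Most of this sum came from Scd1 (2836, 3951 and 5729 CPM). Awat1, Elovl3, Far2 and Mogat1 stood in the same order. Awat2, Plin2, Mc5r and Soat1 were highest in pool 6, and Dgat2 ran the other way (226, 170 and 138 CPM). Abhd5, the partner of Pnpla1, had 76.99 to 88.2 CPM in WT and 30.6 and 59.9 CPM in Rag1-/- pools 2 and 7, and Slc27a4, a fatty acid transporter whose loss causes ichthyosis, had 251 to 459 CPM and 55.9 and 191 CPM. Neither was called by edgeR.

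Of 10 genes that process glucosylceramide and sphingomyelin, Sgms1, a sphingomyelin synthase, fell by 1.21 on the log2 scale (SE 0.23, adjusted p = 0.0358, edgeR), from 222 to 305 CPM in WT to 114 and 120 CPM in Rag1-/- pools 2 and 7. The median of this list was -0.03. All 7 genes of linoleate oxidation and envelope attachment had both libraries labelled Rag1-/- below every WT library, as had 24.0% of all genes tested. Their median was -1.90, and none was called by edgeR. Nipal4, an ichthyosis gene, had 29.1 to 54.6 CPM in WT and 3.97 and 15.2 CPM in Rag1-/- pools 2 and 7, and Tgm1, the transglutaminase of the cornified envelope, had 53.6 to 123 CPM and 5.09 and 40.6 CPM. Of 10 genes of ceramide breakdown, Acer3, an alkaline ceramidase, fell by 1.15 on the log2 scale (SE 0.23, adjusted p = 0.0373, edgeR), from 80.2 to 89.3 CPM in WT to 30.3 and 43.5 CPM in Rag1-/- pools 2 and 7. Asah1, the lysosomal ceramidase, overlapped between the groups (64.0 to 73.5 CPM in WT, 56.8 and 73.5 CPM in Rag1-/- pools 2 and 7), and Acer1, the ceramidase of the epidermis, had 136 to 159 CPM in WT and 7.70 and 86.4 CPM in Rag1-/- pools 2 and 7 without being called.

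**Figure D4:**
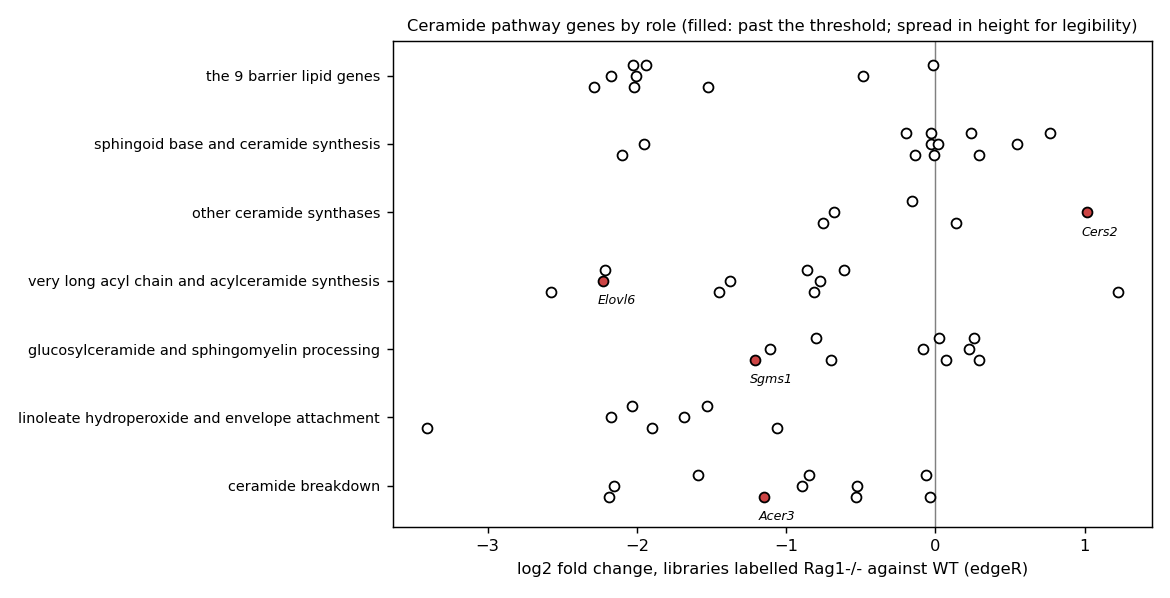
Log2 fold changes of libraries labelled Rag1-/- against WT (horizontal axis) for the 9 genes and for 54 other ceramide pathway genes in 6 lists by role, with 1 point per gene and genes past the threshold filled and named. The 7 genes of linoleate oxidation and envelope attachment lie between -3.40 and -1.06, beside -2.29 to -1.53 for 7 of the 9 genes, and the backbone synthesis genes centre on -0.02.

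Relatives of the lipoxygenases and of Cyp4f39 were followed as well. Of the 5 other lipoxygenase genes none was called by edgeR, against 2.16% of all genes lower and 3.57% higher. DESeq2 called Alox12 lower (adjusted p = 0.0458, 7.59% of all genes) and Alox8 higher (adjusted p = 0.0407, 7.22%). Alox12e, the epidermal 12-lipoxygenase, had 252, 215 and 108 CPM in WT pools 5, 6 and 13, and 8.70 and 114 CPM in Rag1-/- pools 2 and 7, and Alox5, the lipoxygenase of leukocytes, had 7.83 to 26.5 CPM in WT and 19.3 and 22.5 CPM in Rag1-/- pools 2 and 7. Of the 8 other Cyp4f genes, 5 passed the filter and 1, Cyp4f17, was called lower by edgeR, against 2.16% of all genes. Cyp4f17 fell by 1.43 on the log2 scale (SE 0.30, adjusted p = 0.0407, edgeR). It had 9.62 to 13.3 CPM in WT, and 3.85 and 3.98 CPM in Rag1-/- pools 2 and 7. Cyp4f13 had 14.7 to 17.9 CPM in WT and 17.6 and 13.5 CPM in Rag1-/- pools 2 and 7.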

How the data were processed

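RNA of sorted dermal ILC2s was sequenced in 3 WT and 2 Rag1-/- pools. Reads were aligned by the authors with STAR (version 2.5) to GRCm38 and assigned to genes with featureCounts (version 1.5.0-p1). The deposited raw counts are not normalized and come with a transcript length per gene, used here for levels per kilobase. The labels and the methods name different releases of the annotation. A second, normalized table was not used. All its values (100% within 0.001) were whole multiples of 1 step per library, and scaling the raw counts and rounding them gave these whole numbers, so that each library had been brought to a like depth (Rag1-/- pool 2 multiplied by 3.25, the others by 0.697 to 0.818) before size factors were applied. The raw counts had no gaps among the low whole numbers.

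Levels are counts per 1000000 counts on genes of the library (CPM). The test was edgeR's quasi-likelihood F test (edgeR 4.0.16, R 4.3.3) after filterByExpr and TMM scaling, with Benjamini-Hochberg adjustment over the 19011 genes kept. A call needed an adjusted p below 0.05 and a log2FC beyond 1 in size. The SE is the log2FC divided by the root of F. The smallest level that 3 counts can show was 0.0760 to 0.0911 CPM in WT and 0.373 and 0.0771 CPM in Rag1-/- pools 2 and 7. The pools are independent by the study's methods, so p-values measure the spread between pools of animals.

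On simulated counts with 200 changed genes, edgeR recovered 126 with 9 false calls among 19011 genes, and DESeq2 recovered 149 with 53. The alternatives were DESeq2 1.42.0, RLE scaling, library size alone, scaling on leukocyte or keratinocyte markers (median ratio over the list), dropping the filter, requiring 10 counts or more in each library, calling on adjusted p without a fold limit, and leaving out each library. Thinning was added after the data were seen. The 9 genes and all lists were chosen with earlier results of these data known. Named are the 9 genes, pathway and family genes that were called or have a set role, the 5 genes nearest in profile (log2 CPM with a prior count of 2), Rag1 and cell markers. Not all pathway genes with a set role are reported here. Sptlc2, Sptlc3, Hacd3, Alox8, Alox12, Alox12e, Alox5 and Cyp4f13 were added after their values were seen. Of the 9 genes, 6 had the same interval in GENCODE M21, which gave the strands. Upstream sequences are from RefSeq.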

Additional observations from a re-analysis of the deposited data

How the results depend on the processing

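Over 9 genes and 13 or 14 alternatives each, 90 of 124 log2 fold changes kept sign and side of the threshold, 31 passed it newly and 3 changed sign: Ugcg (1.90) and Smpd1 (1.12) with scaling on keratinocyte markers, and Ugcg without WT pool 6, where leaving out each library gave -0.083 to 0.061. Part of this tally was fixed in advance and is not a measure of stability. None of the 9 genes was called with all libraries, so no call could be lost. Calling on adjusted p alone used the same fit, so its fold changes could not differ. Pnpla1 and Sdr9c7 could not be fitted where at least 10 counts were required in every library, since pool 2 held 9 of each.

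The number of the 9 genes called lower, 0 with all libraries (2.16% of all genes), was 4 with DESeq2 (7.59%) and 7 without a filter (4.98%). It was 2 with at least 10 counts in every library (4.54%), 9 with scaling on leukocyte markers (72.7%) and 1 after thinning (3.34%). With scaling on keratinocyte markers, 1 of the 9 genes was called higher (62.3% of all genes). The median log2 fold change of the 9 genes, -2.01, was -4.50 and -0.76 with scaling on leukocyte and keratinocyte markers. With each library left out in turn, 0 to 8 genes were called lower and the median ran from -3.50 to -1.13.

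With DESeq2, 14 of the 54 pathway genes were called lower (7.59% of all genes tested), and with leukocyte scaling 49 (72.7%). Without a filter 20 were called lower (4.98%), with at least 10 counts 6 (4.54%) and after thinning 5 (3.34%). Called higher were 0 with RLE scaling (3.32% of all genes), library size alone (3.33%) and leukocyte scaling (0.0736%). With keratinocyte scaling 20 were called higher (62.3%), and after thinning 2 (5.01%). With each library left out, 0 to 25 were called lower and 0 to 1 higher. Over all genes 1090 were called, 2454 with DESeq2, 13832 with leukocyte and 11900 with keratinocyte scaling, 2645 without a filter, and 0 to 2409 with each library left out. The cause of these shifts was not tested, except that a marker scaling moves all genes. No paired analysis was possible because the groups share no replicate numbers. Depth limits the lower genes most in Rag1-/- pool 2, where 4 of them had 9 to 12 counts.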
